A study of Mus musculus with 66 samples.

Results

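CC chemokines are small secreted proteins that draw leukocytes into tissue. The 10 genes described here encode chemokines for monocytes, T cells, eosinophils and mucosal lymphocytes: Ccl2, Ccl3, Ccl4, Ccl5, Ccl7, Ccl8, Ccl11, Ccl20, Ccl24 and Ccl28. They were selected by gene symbol, and all 10 were present among the 30452 genes of the deposited table, on 14 transcript rows whose values were summed per gene. Their levels are given in TPM, a relative abundance that is adjusted for transcript length and scaled to the same total in each sample.

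The samples were 66 pieces of distal gut from 19 wildtype C57Bl/6 mice, obtained at 6 weeks of age, and all groups share this strain. Colitis was induced with 3% dextran sulfate sodium (DSS), a chemical that damages the colonic epithelium, given for 6 days from day 0. Uninjured mice were killed at day 0 (4 mice), and treated mice at days 3, 6, 9, 14 and 20 (3 mice a day), so mice of day 3 had received DSS for only part of its course. Each mouse gave mucosa of the mid-colon, rectal mucosa and anus, and the 9 mice of days 9 to 20 also gave squamous neo-epithelium of the colon, a section labelled as separate from the anus. There were no untreated mice after day 0, so time and DSS cannot be told apart, and each day came from other mice.

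Depth is unknown because the table holds no read counts. Between 11268 and 13789 genes reached 1 TPM in a sample. The labelled tissues were compared with their markers as summed TPM. The 7 colonocyte genes summed to between 2072 and 9578 TPM in mid-colon and rectum, and the 7 squamous genes to between 8959 and 32672 TPM in anus and neo-epithelium. The anus at day 0 also held 473 to 1639 TPM of colonocyte genes, and the neo-epithelium at day 20 held 1375 to 2642 TPM. Muscle was discarded before RNA isolation, per the series' design text, yet the 5 skeletal muscle markers summed to between 1122 and 12280 TPM in uninjured anus and to between 1334 and 7092 TPM in anus on later days. They reached at most 119 TPM in the other sections, and their part in the results on anus was not tested. Single rectal samples held up to 992 TPM of squamous genes.

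By way of background, chemokines bind receptors on the surface of leukocytes and direct their movement. Ccl2 and Ccl7 are monocyte chemoattractants, with Ccr2 as the classical receptor on inflammatory monocytes. Ccl8 is described beside them here, with no receptor assigned to it. Ccl3, Ccl4 and Ccl5 are inflammatory chemokines for monocytes and T cells, and Ccl3 and Ccl5 act through Ccr1. They come largely from activated macrophages, neutrophils, T cells and NK cells. Ccl11 and Ccl24 are eotaxins, which act on eosinophils through Ccr3. Ccl20 and Ccl28 are epithelial products: Ccl20 attracts Ccr6-bearing cells to lymphoid follicles, and Ccl28 attracts Ccr10-bearing plasma cells to the colon.

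In uninjured mid-colon and rectum, Ccl28 was the most abundant of the 10 genes, and in uninjured anus it was Ccl8. Ccl28 stood at 49.7 ± 3.20 TPM (SD, n = 4) in mid-colon and 52.8 ± 6.14 TPM (SD, n = 4) in rectum. The next members in rectum were Ccl8 (9.78 ± 1.95 TPM, SD, n = 4) and Ccl11 (8.76 ± 0.517 TPM, SD, n = 4), which overlapped each other. Ccl3 and Ccl4 were near 0 in uninjured colon: Ccl4 was listed at 0 in 3 of the 4 rectal samples and reached 0.114 TPM in the fourth. A change below is a difference of log2(TPM + 1) fitted with limma over all genes that passed a filter of 1 TPM. It counts as passing when its Benjamini-Hochberg adjusted p is under 0.05. Adding 1 understates the change of genes near 0.

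The uninjured anus differed from the uninjured rectum in these chemokines. Of the 8 members that passed the filter, 5 were higher and 2 lower in the anus, where 60.3% of all tested genes differed. Ccl8 was higher in the anus by 3.36 ± 0.22 (SE, log2, adjusted p 1.2e-06), at 149, 103, 75.7 and 119 TPM. Ccl11 was higher by 1.83 ± 0.15 (SE, log2, adjusted p 7.7e-06), at 37.8, 26.8, 40.2 and 31.5 TPM. No anal sample overlapped a rectal one for either gene. Ccl24, Ccl7 and Ccl2 were higher by 0.92, 0.96 and 1.03 on the log2 scale, and the call of Ccl2 was lost without mouse 2 (adjusted p 0.146) or mouse 4 (adjusted p 0.142), with all 66 samples in one fit (adjusted p 0.0889) and with no filter (adjusted p 0.072). Ccl28 and Ccl20, the epithelial members, were lower in the anus by log2 differences of -2.33 and -1.61. The rectum and the mid-colon were not called different for any of the 6 members tested by limma at day 0 (0 at an unadjusted p under 0.05), where 1.79% of genes were called.

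**Figure D1:**
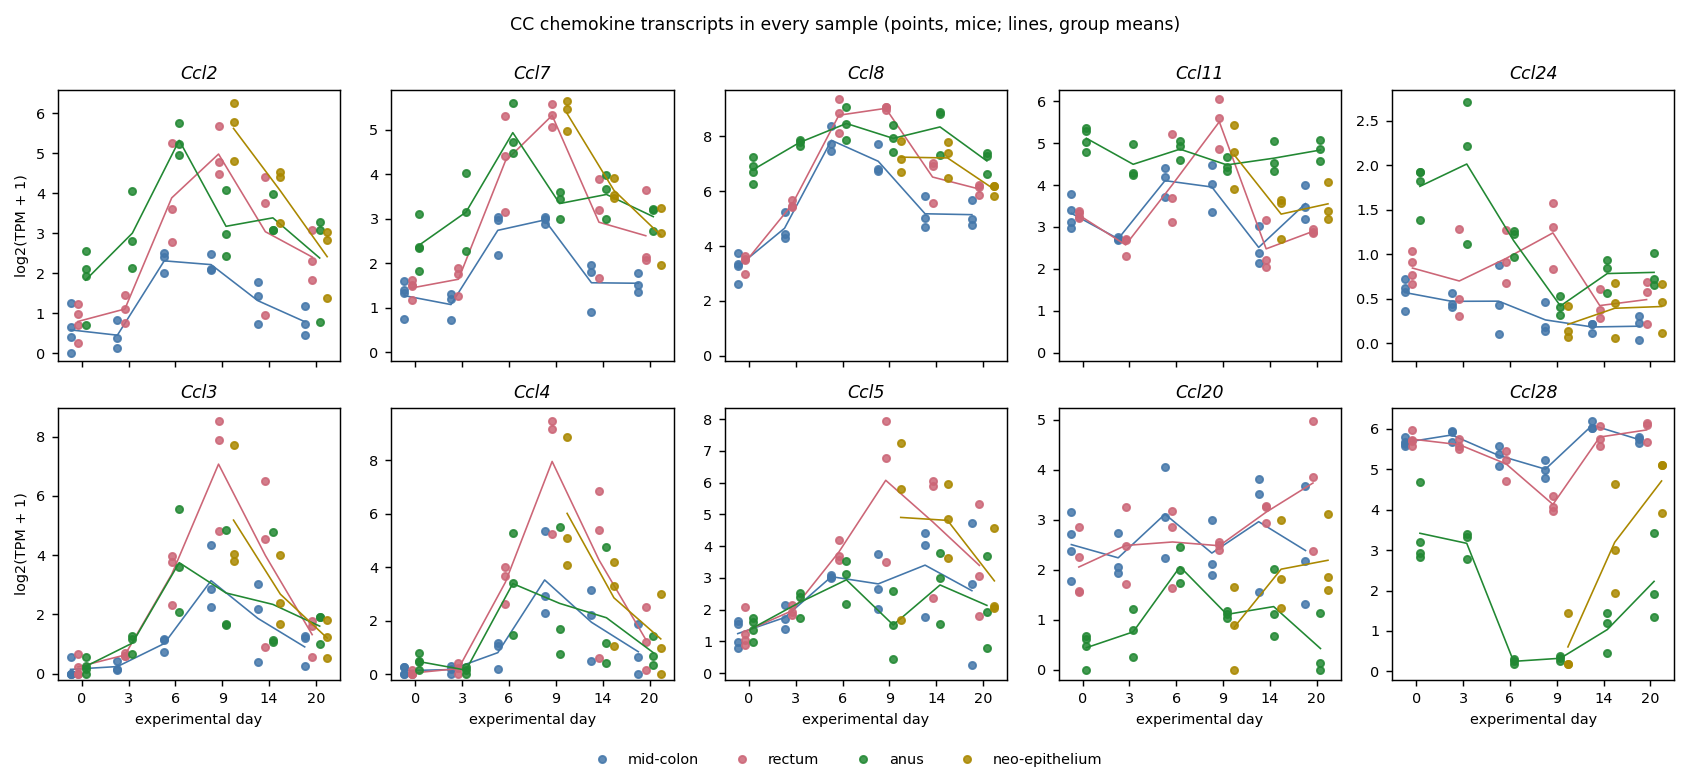
Log2(TPM + 1) of each of the 10 chemokine genes (panels) by experimental day, with 1 point per mouse and a line through the group means for mid-colon, rectum, anus and neo-epithelium. Ccl8 was high in every anal sample at day 0 (75.7 to 149 TPM), Ccl3, Ccl4 and Ccl5 were widely spread at day 9 in rectum, and Ccl28 was at most 0.314 TPM in all anal samples of days 6 and 9.

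Of Ccl2, Ccl7 and Ccl8, Ccl8 was the most abundant, and it was the single member called higher in rectum at day 3. It went from 10.6, 6.97, 10.1 and 11.4 TPM in uninjured rectum to 42.7, 41.6 and 49.8 TPM at day 3 and 454, 277 and 648 TPM at day 6. At day 9 it stood at 530, 530 and 489 TPM, a mean 52.8 times that of day 0. Every treated rectal sample lay above every uninjured one. The log2 rise was 2.10 ± 0.16 (SE, adjusted p 0.00026) at day 3, 5.35 ± 0.27 (SE, adjusted p 1.5e-05) at day 6 and 5.60 ± 0.16 (SE, adjusted p 1.1e-07) at day 9. In bulk tissue, more cells of a type and more RNA per cell cannot be told apart.

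Ccl8 was also called higher late in the course. In rectum it was at 46.9, 120 and 130 TPM at day 14 and at 56.9, 73.8 and 69.5 TPM at day 20. Both later days were called higher than day 0, by 3.10 ± 0.35 and 2.66 ± 0.18 (SE, log2). In mid-colon Ccl8 rose by 4.61 ± 0.28 (SE, log2) at day 6, to 208, 175 and 333 TPM, and by 3.84 ± 0.30 (SE, log2) at day 9. The mid-colon was still higher at days 14 and 20 by 1.93 and 1.90 on the log2 scale. These late mid-colon calls were lost without mouse 3 (adjusted p 0.0543 and 0.0591), and the day 14 call also without mouse 15 or 16 (adjusted p 0.0557 and 0.0845). The day 20 call was lost without mouse 17 (adjusted p 0.0518). The anus started high, rose by 1.69 ± 0.31 (SE, log2, adjusted p 0.0089) at day 6, to 540, 233 and 347 TPM, and had no later call. Its samples were still above day 0 at day 9 (170, 342 and 241 TPM) and day 14 (160, 469 and 448 TPM). With all 66 samples in one fit both days were called (adjusted p 0.0263 and 0.00234), as were day 9 without mouse 1 (adjusted p 0.0328) and day 14 without mouse 14 (adjusted p 0.0155).

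The sequence in front of the Ccl8 start site is shown because this gene was called higher on every later day in rectum, beside that of Ccl3, which had one of the largest rises in rectum at day 9. Both are the 250 bases before the start from RefSeq (GRCm38.p6), which matched 4 of the 10 members. They lie at chr11:82114935-82115184 (Ccl8, plus strand) and chr11:83649379-83649628 (Ccl3, minus strand, printed 5′ to 3′ along the gene). Capitals mark matches to the motifs searched on both strands, namely TATAAA, the AP-1 motif TGANTCA and the NF-kB consensus.
Ccl8: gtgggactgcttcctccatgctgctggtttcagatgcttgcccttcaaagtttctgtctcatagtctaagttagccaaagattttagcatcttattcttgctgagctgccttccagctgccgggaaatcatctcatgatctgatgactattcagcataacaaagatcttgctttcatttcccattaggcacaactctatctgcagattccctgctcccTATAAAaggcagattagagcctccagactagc
Ccl3: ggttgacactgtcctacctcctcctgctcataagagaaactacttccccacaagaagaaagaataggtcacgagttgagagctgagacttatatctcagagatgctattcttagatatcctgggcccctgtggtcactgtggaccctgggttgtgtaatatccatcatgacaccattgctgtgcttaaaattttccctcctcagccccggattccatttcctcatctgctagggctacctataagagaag
Ccl8 has 1 TATAAA, starting 32 bases before the start site, and Ccl3 has no match to any of the 3 motifs in this window. TATAAA was found in 12.4% of the 32851 promoters of the same length, TGANTCA in 6.75% and the NF-kB consensus in 7.25%.

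Ccl2 and Ccl7 moved alike. The 7 genes Ccl2, Ccl3, Ccl4, Ccl5, Ccl7, Ccl8 and Ccl11 lie on chromosome 11, with Ccl2 (82035571 to 82037453) and Ccl7 (82045712 to 82047525) next to each other in GRCm38. Over the 21 group means their log2 values had a Pearson r of 0.983, the second highest among the 10 members. In rectum Ccl2 went from 0.969, 0.639, 1.35 and 0.205 TPM at day 0 to 11.1, 5.93 and 37.5 TPM at day 6 and 21.5, 26.4 and 50.1 TPM at day 9. All samples of days 6 and 9 were above those of day 0, by 3.09 ± 0.51 and 4.19 ± 0.32 (SE, log2, adjusted p 0.0023 and 1.5e-05). Ccl7 rose beside it by 2.85 ± 0.42 and 3.88 ± 0.17 (SE, log2), from 1.26 to 2.07 TPM at day 0 up to 39.1, 32.3 and 47.1 TPM at day 9. A gene on the other strand, Gm17268, overlaps Ccl2, and whether strand was used in quantification is not given in the sources used here.

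In the anus this pair was called higher at day 6 and on no other day. Ccl2 reached 53.6, 36.8 and 30.2 TPM there at day 6, from 0.647, 3.30, 4.93 and 2.80 TPM, a rise of 3.50 ± 0.41 (SE, log2, adjusted p 0.0013). Ccl7 rose by 2.53 ± 0.36 (SE, log2, adjusted p 0.0027) on the same day. By day 9 Ccl2 stood at 6.96, 4.43 and 16.1 TPM in anus and overlapped day 0. The direct comparison of day 9 with day 6 in anus called none of 8 members in limma (4 at an unadjusted p under 0.05), where 0.241% of genes were called, so the fall is given as values only. In mid-colon the rises were smaller: Ccl2 was 3.22, 3.29 and 4.57 TPM at day 9, higher by 1.63 ± 0.28 (SE, log2, adjusted p 0.0011).

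In rectum, monocyte and macrophage markers were also higher at days 6 and 9. The 7 marker genes with a single identifier summed to between 163 and 234 TPM in uninjured rectum, and all 7 were called higher at days 6 and 9. On these days 11.5% and 33.5% of all genes were called higher. The sum was 1564 to 1775 TPM at day 9. At day 3, when Ccl8 had already risen in rectum, none of the 7 was called by limma and their sum was 214 to 277 TPM. In anus the sum was already 471 to 867 TPM at day 3, against 204.6 to 317.5 TPM at day 0. Ccl2, Ccl7 and Ccl8 were not called there on that day. The part of cell numbers in the chemokine changes was not tested.

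Ccl3, Ccl4 and Ccl5, the inflammatory chemokines for monocytes and T cells, rose in rectum at day 9 with a wide spread between mice. In rectum Ccl4 was at 36.7, 567 and 702 TPM in mice 11, 12 and 13, against at most 0.114 TPM at day 0. Ccl3 was at 27.1, 234 and 367 TPM in the same order, against at most 0.593 TPM. Ccl5 was at 10.3, 246 and 108 TPM, against 0.840 to 3.27 TPM. Mouse 11 was the lowest for each of the 3 genes but still above every uninjured sample. The log2 rises were 7.91 ± 0.88 (Ccl4), 6.84 ± 0.75 (Ccl3) and 4.76 ± 0.89 (Ccl5), each with its SE, with adjusted p-values of 0.00011, 0.00011 and 0.002.

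The same 3 genes had already risen in rectum at day 6, to lower and tighter levels. Ccl4 was at 5.10, 15.2 and 11.6 TPM, Ccl3 at 3.94, 14.7 and 12.7 TPM and Ccl5 at 11.9, 10.8 and 17.3 TPM. From day 6 to day 9 Ccl4 and Ccl3 rose further by 4.52 ± 1.01 and 3.72 ± 0.90 (SE, log2, adjusted p 0.0096 and 0.013). They were 2 of the 10 members tested between these days, with 1 more, Ccl28, called lower, where 37.9% of genes were called. The Ccl3 call was lost without mouse 8 (adjusted p 0.0502) or mouse 13 (adjusted p 0.0562). Without mouse 10 the number of members called was 6. The median of all genes also moved by 0.37 on the log2 scale between these days (-0.12 with TMM factors, an alternative scaling), less than either gene.

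At day 14 rectal levels again differed widely between mice. Ccl4 stood at 0.512, 40.6 and 113 TPM in mice 14, 15 and 16, and Ccl3 at 0.870, 22.4 and 90.2 TPM. Ccl5 stood at 4.12, 65.1 and 58.7 TPM, and was called higher by 3.46 ± 0.85 (SE, log2, adjusted p 0.035). Mouse 14 was low for all of these and for Ccl2 (0.934 TPM, against 12.6 and 20.2 TPM). Only 2 of the 7 members that passed the filter in rectum at day 14 were called, Ccl8 and Ccl5, both higher, where 15.8% of genes were called. Without mouse 14 there were 6 calls, and without mouse 1, 2, 3 or 15 there was 1. The Ccl5 call was lost without any of mice 1, 2, 3, 4, 15 and 16 (adjusted p 0.0687 to 0.135). At day 20 the Ccl5 values were 7.35, 38.9 and 2.48 TPM and overlapped day 0.

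Lymphocyte and cytokine transcripts were read in the same mice. Ifng, the cytokine of T and NK cells, was at 0.246 TPM in rectum of mouse 11 at day 9 and at 31.7 and 22.7 TPM in mice 12 and 13. At day 14 it was at 0.0814 TPM in mouse 14 and at 3.38 and 9.54 TPM in mice 15 and 16. The mice low for Ccl3, Ccl4 and Ccl5 were thus also those low for Ifng. The 5 NK and cytotoxic markers summed to 0.965 to 1.58 TPM in rectum at day 0 and 25.6 to 82.8 TPM at day 9, and the 6 T cell markers to 2.72 to 4.82 TPM and 17.0 to 22.7 TPM. The 5 neutrophil markers summed to 605 to 737 TPM at day 0 and 11907 to 13809 TPM at day 9. Their part in the chemokine rises was not tested.

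The group was also called higher in mid-colon and anus. At day 9 Ccl4 in mid-colon was at 6.64, 40.0 and 3.82 TPM, higher by 3.39 ± 0.58 (SE, log2, adjusted p 0.0011), and Ccl3 was higher by 3.00 ± 0.41 (SE, log2). Ccl5 rose in mid-colon by 1.79 ± 0.23 at day 6 and 1.56 ± 0.38 at day 9 (SE, log2), calls lost with all 66 samples in one fit (adjusted p 0.17 and 0.183). In anus the 3 genes rose at day 6, when Ccl3 and Ccl4 overlapped their rectal levels of that day, with Ccl3 at 11.2, 45.7 and 3.23 TPM, higher by 3.50 ± 0.67 (SE, log2, adjusted p 0.011). The anal calls of Ccl4 (2.91 ± 0.73, SE, log2, adjusted p 0.03) and Ccl5 (1.52 ± 0.34, SE, log2, adjusted p 0.02) rested on few samples. Without mouse 8 their adjusted p-values were 0.0955 and 0.0858, and without mouse 9 they were 0.0619 and 0.0863. Without mouse 2 they were 0.0606 and 0.0533, and the Ccl4 call was also lost without mouse 1 or 4 (adjusted p 0.0537 and 0.056).

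The eotaxins differed in level and in course. Ccl11 in rectum was lower at day 3 (5.44, 3.96 and 5.60 TPM, against 8.27 to 9.37 TPM at day 0), a fall by 0.71 ± 0.13 on the log2 scale (SE, adjusted p 0.012). That call was lost when all 66 samples shared one fit (adjusted p 0.468). At day 9 it was at 65.7, 28.2 and 47.3 TPM, above all uninjured samples, a rise of 2.22 ± 0.25 (SE, log2, adjusted p 0.00011). By day 14 it was at 3.16, 3.66 and 7.95 TPM, lower than at day 9 by a log2 difference of -3.03 ± 0.40 (SE, adjusted p 0.019), a call lost without mouse 13 (adjusted p 0.0965). These values lay below all of day 0, as did those of day 20 (6.26 to 6.73 TPM). Neither day was called against day 0 (limma, adjusted p 0.0656 and 0.0811). Ccl11 is a known product of fibroblasts, whose 5 markers summed to 291 to 362 TPM in rectum at day 0, 183 to 260 TPM at day 3 and 512 to 949 TPM at day 9. The sum was 205 to 362 TPM in rectum at day 14. In neo-epithelium at day 9 it was 1246 to 1787 TPM, with Ccl11 at 14.0 to 42.4 TPM. The part of fibroblasts in the Ccl11 changes was not tested. In mid-colon and anus Ccl11 was not called against day 0 on any day.

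Ccl24 was the least abundant member and reached 1 TPM in 15 of the 66 samples. Its highest values were in the anus, at 2.54, 1.61, 2.79 and 2.80 TPM at day 0 and 5.55, 1.16 and 3.66 TPM at day 3. It was lower at day 9 (0.252, 0.328 and 0.444 TPM) by a log2 difference of -1.34 ± 0.22 (SE, adjusted p 0.0092). This call was lost without mouse 11 (adjusted p 0.0588) or mouse 12 (adjusted p 0.0568). At day 14 the difference was -0.98 ± 0.22 (SE, adjusted p 0.049), and leaving out any single mouse of either day lost that call (adjusted p 0.0606 to 0.207). The 5 eosinophil markers summed to at most 0.797 TPM in anus. In rectum they summed to 0.408 to 0.669 TPM at day 0 and 9.86 to 30.8 TPM at day 9, when Ccl11 was also higher. Most of the day 9 sum was Il5ra (9.23 to 28.5 TPM, against at most 0.0585 TPM at day 0), the single marker of the 5 that passed the filter there, and Epx stood at 0 throughout rectum on both days. In mid-colon the 5 markers summed to 0.316 to 0.887 TPM at day 0 and 3.92 to 15.3 TPM at day 9. Ccl11 was not called in mid-colon at day 9 (limma, adjusted p 0.105), unlike in rectum, while the marker sum rose in both. That sum is not evidence on all 5 markers. In rectum it rested mainly on Il5ra, and Epx was at 0 in mid-colon at day 9 too. The part of these markers in the chemokine changes was not tested. Ccr3, the eotaxin receptor, reached at most 0.259 TPM in rectum.

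Of the epithelial members, Ccl28 fell. Ccl28 in rectum went from 46.8, 51.6, 51.2 and 61.4 TPM at day 0 to 42.6, 36.5 and 25.2 TPM at day 6 and 19.3, 14.7 and 15.8 TPM at day 9. No sample of these days overlapped day 0. It fell by 1.61 ± 0.14 (SE, adjusted p 2.9e-05) on the log2 scale at day 9. The smaller fall at day 6 (-0.61 ± 0.18, SE, log2, adjusted p 0.021) was lost with TMM factors (adjusted p 0.107), and the median of all genes on that day was -0.27, and -0.06 with TMM factors. At day 14 the values were 66.1, 46.2 and 52.9 TPM, higher than at day 9 by 1.67 ± 0.20 (SE, log2, adjusted p 0.015). This rise was lost without mouse 12, 13 or 16 (adjusted p 0.0557, 0.0921 and 0.0514). In mid-colon the fall at day 9 was -0.66 ± 0.16 (SE, log2, adjusted p 0.0075), a call lost with all 66 samples in one fit (adjusted p 0.153).

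In the anus Ccl28 fell to 0.314 TPM or less at days 6 and 9. From 6.16, 8.23, 6.67 and 24.6 TPM it went to 0.188, 0.247 and 0.134 TPM at day 6 and 0.314, 0.252 and 0.197 TPM at day 9. The log2 differences were -3.17 ± 0.42 (SE, adjusted p 0.0022) and -3.09 ± 0.42 (SE, adjusted p 0.0039). At day 14 it was at 1.74, 1.29 and 0.369 TPM, lower by -2.38 ± 0.47 (SE, log2, adjusted p 0.03), a call lost without mouse 2, 14, 15 or 16 (adjusted p 0.0843, 0.0536, 0.0829 and 0.125). At day 20 it was at 9.71, 1.52 and 2.79 TPM and overlapped day 0. The 7 colonocyte markers moved with it in the anus, from a sum of 473 to 1639 TPM at day 0 to 14.9 to 50.6 TPM at day 6 and 13.6 to 37.8 TPM at day 9. All 6 colonocyte markers that passed the filter were called lower on both days, where 6.37% and 3.63% of all genes were. The part of these markers in the fall of Ccl28 was not tested.

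Ccl20 was called different from day 0 in a single comparison. In the anus it was at 4.49, 2.31 and 2.97 TPM at day 6, against at most 0.585 TPM at day 0, higher by 1.62 ± 0.26 (SE, log2, adjusted p 0.0051). In rectum all samples of day 14 (8.60, 6.65 and 8.51 TPM) lay above day 0, a difference of 1.10 ± 0.32 (SE, log2, adjusted p 0.0546). It was called with a filter of 5 TPM (adjusted p 0.0455) and without mouse 4 (adjusted p 0.0327). At day 20 rectal values were 13.4, 30.5 and 4.17 TPM, against 1.91 to 6.18 TPM at day 0, with overlap and no call (adjusted p 0.102). Without mouse 19 this difference was 2.36 with an adjusted p of 0.009996, and with all 66 samples in one fit the adjusted p was 0.0361. The value of mouse 18 came mostly from 1 transcript, ENSMUST00000113437, at 27.7 TPM. Rectal B cell markers summed to 13.0 to 126 TPM on that day, against 1.11 to 21.2 TPM at day 0, and their part was not tested.

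The sequences in front of both epithelial genes are shown because their genes are the epithelial members. They are the 250 bases before the start from RefSeq (GRCm38.p6), at chr1:83116516-83116765 (Ccl20, plus strand) and chr13:119623569-119623818 (Ccl28, plus strand). Capitals again mark motif matches.
Ccl20: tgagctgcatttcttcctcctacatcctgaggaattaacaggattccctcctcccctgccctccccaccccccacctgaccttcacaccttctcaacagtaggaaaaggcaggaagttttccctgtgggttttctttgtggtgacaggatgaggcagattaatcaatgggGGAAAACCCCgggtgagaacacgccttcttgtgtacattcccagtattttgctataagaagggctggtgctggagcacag
Ccl28: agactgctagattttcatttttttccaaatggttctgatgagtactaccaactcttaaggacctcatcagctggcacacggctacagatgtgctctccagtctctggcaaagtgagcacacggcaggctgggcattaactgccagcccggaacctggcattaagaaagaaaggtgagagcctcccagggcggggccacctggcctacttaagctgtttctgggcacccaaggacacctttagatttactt
Ccl20 has 1 match to the NF-kB consensus, starting 80 bases before the start site, and Ccl28 has no match to the 3 motifs in this window. The shares of all promoters given above apply here too.

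**Figure D2:**
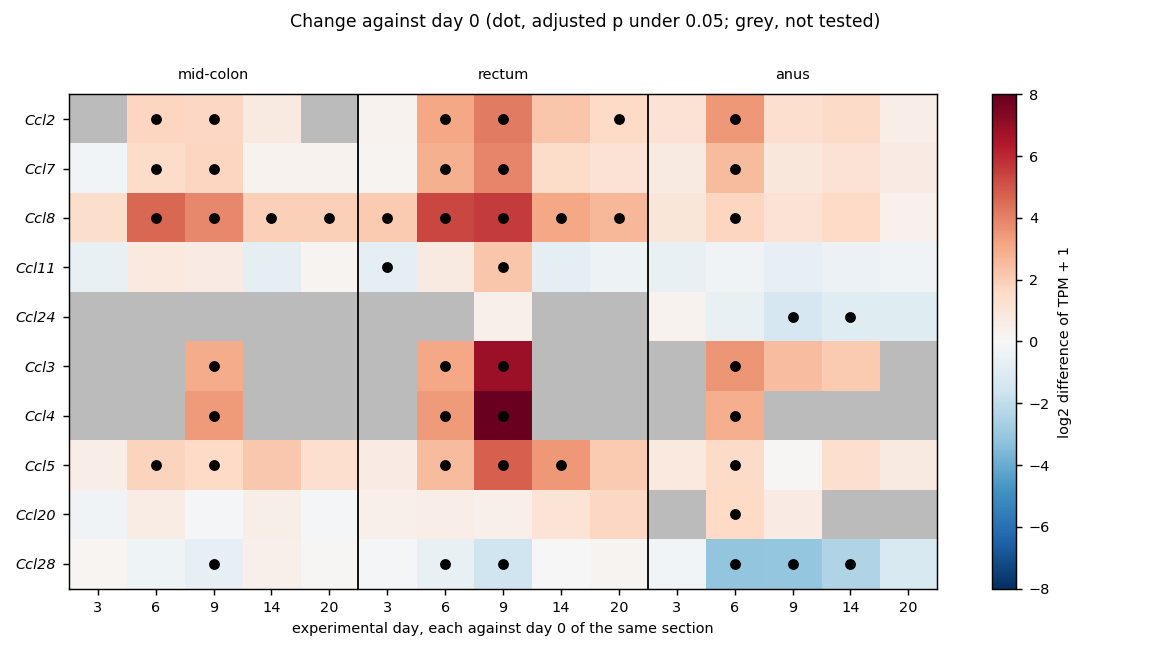
Log2 difference of TPM + 1 between each later day and day 0 of the same section (columns) for each member (rows), with a dot where the adjusted p was under 0.05 and grey where the gene did not pass the filter. The darkest red cells are Ccl4 and Ccl3 in rectum at day 9 (7.91 and 6.84), and the darkest blue cells are Ccl28 in anus at days 6 and 9 (-3.17 and -3.09).

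Counting the members against day 0 gave the following. In rectum 2 of 7 tested members were called at day 3 (6.62% of all genes), 7 of 9 at day 6 (48.7%), 8 of 10 at day 9 (53.5%) and 2 of 7 at day 20 (7.68%). In mid-colon none of 6 was called by limma at day 3 (2 at an unadjusted p under 0.05; 0.375% of all genes), 4 of 7 at day 6 (14.9%) and 7 of 9 at day 9 (43.4%). Later in mid-colon 1 of 7 was called at day 14 (4.36%) and 1 of 6 at day 20 (1.56%), Ccl8 both times. In anus limma called none of 7 at day 3 (3 at an unadjusted p under 0.05; 0.044%), 8 of 10 at day 6 (15%), 2 of 9 at day 9 (5.09%), 2 of 8 at day 14 (4.27%) and none of 7 at day 20 (1 at an unadjusted p under 0.05; 1.46%). The anal calls of day 6 were 7 higher and 1 lower. Ccl3, Ccl4 and Ccl20 were under 1 TPM in every anal sample of day 0, and Ccl28 in every one of day 6. These members passed the filter only through the group where they were high, which fixed their direction in the count. In rectum at days 6 and 9 and in mid-colon at day 9, Ccl2, Ccl3 and Ccl4 likewise passed only with the help of the later samples. The anal calls of days 9 and 14 were all lower, where 3.63% and 2.01% of all genes were called lower. Yet 8 of 9 and 7 of 8 members had an unadjusted p under 0.05 in limma. The median log2 differences of the members were 0.67 and 1.25. At day 9 the uncalled differences were 2.48 (Ccl3), 1.35 (Ccl2), 1.15 (Ccl8), 0.93 (Ccl7), 0.67 (Ccl20), 0.10 (Ccl5) and -0.63 (Ccl11). Ccl24 and Ccl28, called lower at day 9, passed the filter there only through day 0. All samples fitted together gave 2 calls in anus at day 20. The filter asked for 1 TPM in at least 3 samples, so these counts do not cover the 10 genes on every day. Ccl3 and Ccl4 were not tested in rectum at day 14, where mice 15 and 16 had the high values given above, and Ccl4 was not tested in anus at day 9, where mouse 12 was at 44.3 TPM.

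Single mice decided several of these counts. In mid-colon 7 members were called at day 6 without mouse 8, and 5 at day 14 without mouse 14. None was called at day 14 without mouse 3, 15 or 16. At day 20 the mid-colon had 3 calls without mouse 19 and none without mouse 3 or 17. In rectum at day 20 there were 7 calls without mouse 19, and 1 without any of mice 1, 2, 3, 4, 17 and 18, when the call of Ccl2 (1.61 ± 0.33, SE, log2, adjusted p 0.033) was lost.

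The next comparison asked whether the sections responded differently, by testing the difference between 2 changes directly. At day 9, 7 of 10 members differed between rectum and mid-colon, where 6.55% of all genes did. The rise was larger in rectum by 2.55 ± 0.46 for Ccl2, 2.18 ± 0.28 for Ccl7 and 1.76 ± 0.38 for Ccl8 (SE, log2, adjusted p 0.0035, 0.00055 and 0.011). It was also larger for Ccl3, Ccl4 and Ccl11, by 3.85, 4.52 and 1.59, and the fall of Ccl28 was larger by 0.95. The Ccl8, Ccl3, Ccl4, Ccl11 and Ccl28 calls were lost without mouse 13 (adjusted p 0.0862, 0.194, 0.253, 0.157 and 0.0974), which left 2 calls. The Ccl2 call was lost with 0.1 in place of 1 added to TPM (adjusted p 0.272). It was also lost with all 66 samples in one fit (adjusted p 0.0676), as were the calls of Ccl3, Ccl4 and Ccl28 (adjusted p 0.086, 0.0989 and 0.429). The Ccl3, Ccl4 and Ccl11 calls were lost with 0.1 added to TPM and with no filter (adjusted p 0.0522 to 0.168). The Ccl11 call was lost with TMM factors too (adjusted p 0.0605). Without mouse 1, 2, 3 or 4 there were 4 calls, the lost ones being Ccl3, Ccl4 and Ccl11 (adjusted p 0.0623 to 0.0968). For Ccl5 the difference was 3.19 ± 1.07 (SE, log2, adjusted p 0.101), with an adjusted p of 0.0326 with the mouse as a block and 0.00227 without mouse 11. At day 6 limma called none of 9 (3 at an unadjusted p under 0.05; 0% of all genes). With the mouse as a block it called 2, Ccl3 (2.25, adjusted p 0.0392) and Ccl4 (2.72, adjusted p 0.000934), and the same number without mouse 8.

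The anus and the rectum were compared in the same way. At day 6, 2 of 10 members differed in response, where 21.5% of genes did: Ccl8 rose less in anus (-3.66 ± 0.45, SE, log2, adjusted p 0.00013) and Ccl28 fell more (-2.56 ± 0.49, SE, log2, adjusted p 0.0026). At day 9, 9 of 10 members had a lower change in anus than in rectum, where 19.9% of genes differed. Ccl20 was the exception. Examples were Ccl8 (-4.46 ± 0.35), Ccl7 (-2.94 ± 0.37), Ccl11 (-2.86 ± 0.32) and Ccl2 (-2.84 ± 0.64), in log2 units with SE. Without mouse 13, 5 members were called, and the calls of Ccl3, Ccl4, Ccl5 and Ccl28 were lost (adjusted p 0.105, 0.0835, 0.0507 and 0.119). The Ccl28 call was also lost without mouse 2, 3, 11 or 12 (adjusted p 0.0514 to 0.129). With TMM factors the median of all genes in this comparison moved from -0.12 to 0.13.

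**Figure D3:**
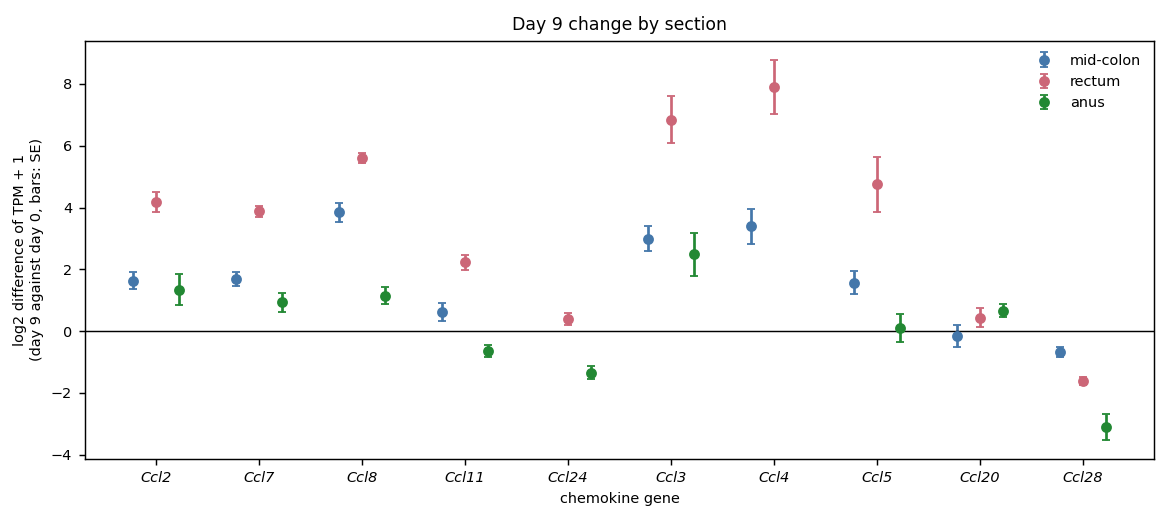
Log2 difference of TPM + 1 between day 9 and day 0 for each member in mid-colon, rectum and anus (points, with SE bars); members that did not pass the filter in a section have no point. Rectal points are the highest for Ccl2, Ccl7, Ccl8, Ccl11, Ccl3, Ccl4 and Ccl5, and Ccl28 is lowest in the anus (-3.09).

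The squamous neo-epithelium was called different from the rectum of the same mice in the 2 epithelial chemokines. Over days 9 to 20 these were 2 of the 9 members tested, both lower, where 42% of genes were called. Ccl28 was lower by a log2 difference of -2.46 ± 0.36 (SE, adjusted p 4.5e-05), lower in 9 of 9 mice. Ccl20 was lower by -1.44 ± 0.33 (SE, adjusted p 0.0019), also lower in 9 of 9 mice. For Ccl2, Ccl7, Ccl8 and Ccl11 the neo-epithelium was higher than rectum in 6, 5, 4 and 6 of 9 mice, with no call, which does not show that they were equal. Ccl3, Ccl4 and Ccl5 were higher than rectum in 2, 2 and 3 of 9 mice, also with no call. On day 14 alone the Ccl20 call was lost, and on day 20 alone that of both genes (adjusted p 0.119 and 0.241 for Ccl20 and 0.0892 for Ccl28).

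Against the anus, 5 of 9 members differed, where 58.5% of genes did. Ccl28, Ccl5 and Ccl2 were higher in the neo-epithelium by 1.64 ± 0.41, 2.06 ± 0.71 and 1.05 ± 0.43 (SE, log2, adjusted p 0.0028, 0.019 and 0.046). Ccl8 and Ccl11 were lower, by -0.95 ± 0.24 and -0.79 ± 0.26 (SE, log2, adjusted p 0.0027 and 0.015). Ccl5 was higher than in the anus in 9 of 9 mice and Ccl8 was higher in 0 of 9. The Ccl5 call was lost without mouse 13 (adjusted p 0.0528), and that of Ccl2 without mouse 11, 12, 13, 15 or 16 (adjusted p 0.0593 to 0.147). The Ccl2 call was also lost with TMM factors (adjusted p 0.0781), no filter (0.0733) or 0.1 in place of 1 added to TPM (0.0591). Taken alone, days 14 and 20 gave no Ccl2 call (log2 differences 0.675 and 0.0336, adjusted p 0.228 and 0.981). Ccl5 was called on no day alone (adjusted p 0.075, 0.072 and 0.604 at days 9, 14 and 20), and Ccl8 not on day 9 or 14 alone. Without mouse 13 there were 3 calls.

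**Figure D4:**
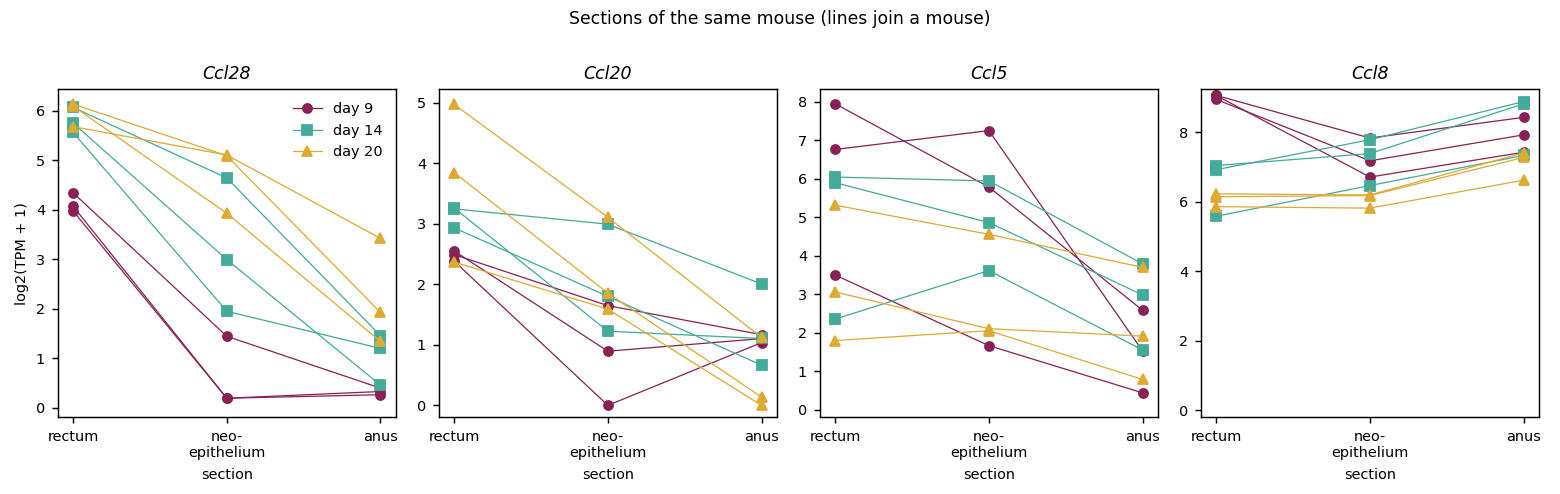
Log2(TPM + 1) of Ccl28, Ccl20, Ccl5 and Ccl8 in rectum, neo-epithelium and anus of the 9 mice of days 9, 14 and 20, with a line joining the sections of a mouse. Ccl28 was lower in the neo-epithelium than in rectum in 9 of 9 mice, and Ccl5 was higher in the neo-epithelium than in the anus in 9 of 9.

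Within the neo-epithelium 5 chemokines fell and Ccl28 rose between days 9 and 20. Ccl2 went from 27.3, 54.1 and 76.1 TPM at day 9 to 8.59, 22.0 and 20.2 TPM at day 14 and 1.60, 6.17 and 7.15 TPM at day 20. It fell by 3.21 ± 0.53 (SE, log2, adjusted p 0.0089) from day 9 to day 20, and Ccl7 fell by 2.73 ± 0.35 (SE, log2, adjusted p 0.0045). The samples of the 2 days did not overlap for either gene. Ccl28 rose from 1.72, 0.140 and 0.140 TPM to 33.4, 14.2 and 33.1 TPM, by 4.10 ± 0.46 (SE, log2, adjusted p 0.0036). In all, 6 of 9 members differed (26.2% of all genes), including Ccl8, Ccl3 and Ccl4, which were lower by -1.18, -3.98 and -4.69. Those 3 calls were lost without mouse 12, 17 or 19 (adjusted p 0.05004 to 0.122), which left 3. Without mouse 13 the calls of Ccl8 and Ccl4 were lost (adjusted p 0.0925 and 0.0777). The colonocyte markers rose with Ccl28, from a sum of 24.6 to 239 TPM at day 9 to 1375 to 2642 TPM at day 20, and the monocyte and macrophage markers went from 1054 to 1728 TPM to 413 to 591 TPM. Their part in these changes was not tested.

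The return from the peak was also tested in the colon. From day 9 to day 14, 4 of 9 members were called in rectum (8.04% of all genes) and 4 of 9 in mid-colon (19.7%), in each case Ccl7, Ccl8 and Ccl11 lower and Ccl28 higher. Ccl8 was lower by -2.50 ± 0.37 in rectum (adjusted p 0.023) and -1.91 ± 0.36 in mid-colon (adjusted p 0.011, SE, log2). Rectal calls numbered 2, 1 and 0 without mouse 11, 12 and 13, each time without Ccl8 and Ccl7 (adjusted p 0.0576 to 0.144), and 2 without mouse 16. Mid-colon calls numbered 2 without mouse 13, when Ccl7 and Ccl11 were lost (adjusted p 0.0509 and 0.0745). The mid-colon call of Ccl11 was also lost without mouse 11, 15 or 16 (adjusted p 0.0555 to 0.0792). From day 6 to day 9 in mid-colon Ccl3 and Ccl4 rose by 2.12 and 2.72 on the log2 scale, 2 of 9 members (40.5% of all genes), and the Ccl4 call was lost without mouse 8 (adjusted p 0.055).

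Receptors for some of these ligands rose in rectum at day 9. Ccr1 and Ccr2 passed the filter in rectum at day 9 and both were called higher, where 33.5% of all genes were. Ccr1 rose by 4.32 ± 0.18 (SE, log2, adjusted p 1e-06), from 1.36 to 2.05 TPM up to 42.0, 67.6 and 58.2 TPM. Ccr2 rose by 2.28 ± 0.36 (SE, log2). In anus at day 6 Ccr1 and Ccr2 were higher, and at day 9 neither was called by limma. Ccr3, Ccr6, Ccr8 and Ccr10 did not pass the filter there. Ccr6, the receptor of Ccl20, had its highest rectal value, 4.74 TPM, in mouse 15 at day 14.

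Atypical receptors, most of which bind chemokines without drawing cells, also changed. Ccrl2, Ackr1 and Ackr2 rose in rectum at day 9 by 4.60 ± 0.51, 1.87 ± 0.36 and 0.86 ± 0.21 (SE, log2). They were 3 of the 4 tested, where 33.5% of all genes were called higher. Ackr4 fell in mid-colon at day 9 by 1.47 ± 0.37 (SE, log2, adjusted p 0.0089). Ackr1, Ackr2 and Ackr4 were higher in the neo-epithelium than in rectum by 1.21, 0.81 and 1.23 on the log2 scale. These were 3 of the 4 tested, where 20.7% of all genes were called higher.

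Some other CC ligands also rose. Of 6 tested in rectum at day 9, where 33.5% of all genes were called higher, 4 were higher: Ccl12 (2.91 ± 0.18), Ccl9 (2.71 ± 0.37), Ccl22 (1.57 ± 0.13) and Ccl6 (1.35 ± 0.20), in log2 units with SE. Ccl25, a ligand of the small intestine, was at 0.11 ± 0.26 (SE, log2). Ccl17 was lower in anus at day 9 by -1.90 ± 0.22 (SE, log2, adjusted p 0.0017). Among 8 cytokines known to induce chemokines, 4 passed the filter in rectum at day 9 and were called higher: Il1b (9.54 ± 0.51), Tnf (5.24 ± 0.36), Il22 (2.61 ± 0.28) and Il6 (2.57 ± 0.29). All 8 together summed to at most 0.619 TPM in rectum at day 0. The 4 thus passed only through day 9, and the filter fixed their direction in advance. Ifng, which was low in mouse 11, did not pass. Il1b was at 326, 1592 and 1603 TPM in mice 11, 12 and 13, and Tnf at 20.4, 60.4 and 63.9 TPM, with mouse 11 again the lowest. In the neo-epithelium against anus, Il1b, Tnf, Ifng and Il6 were higher (2.37, 1.34, 1.07 and 1.32 on the log2 scale), 4 of the 5 tested, where 38.1% of all genes were called higher.

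Genes with the most similar pattern were found by the Pearson r of mean log2(TPM + 1) over the 21 groups, which share mice and sections, and are given as a description. Among the members, Ccl3 and Ccl4 were closest (r = 0.987), and Ccl28 ran against Ccl11 (r = -0.712). Outside the members, Ccl2 was closest to Timp1 (r = 0.967) and Ereg (r = 0.963), an inhibitor of matrix proteases and an epidermal growth factor receptor ligand. Ccl7 was closest to Rasl11a (r = 0.972) and again Timp1 (r = 0.971). Ccl8 was closest to C1qc (r = 0.901), a complement gene of macrophages, and to its neighbour Ccl12 (r = 0.898). Ccl3 and Ccl4 shared F10, which encodes coagulation factor X (r = 0.964 and 0.965). Ccl11 was closest to Cygb (r = 0.903) and Slit3 (r = 0.898). Ccl20 was closest to Spib (r = 0.885), a transcription factor of B cells and M cells. Ccl28 was closest to Gne (r = 0.993), an enzyme of sialic acid synthesis, and Naip6 (r = 0.993). Ccl5 was closest to Snx20 (r = 0.949), and Ccl24 to Evi5l (r = 0.856).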

How the data were processed

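Stranded mRNA libraries of 66 samples were read from one end over 75 bp, per the labels' protocols. CASAVA, kallisto and mm10 are named in the submitters' processing notes, with no versions. The authors deposited one table of TPM per Ensembl transcript, a relative signal with no counts. Of 89516 rows with values, 1318 repeats of a transcript were dropped, after which columns summed to 1000000, and TPM was summed per gene. No sample column was left unused (0). The depth is therefore unknown, and no intervals or detection limits are given.

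Groups followed section and day in the labels. Models were fitted with limma 3.58.1 (R 4.3.3) on log2(TPM + 1), with a prior trend on mean expression. They covered genes reaching 1 TPM in a number of samples no lower than the size of the smallest section-by-day group, with Benjamini-Hochberg adjustment over all tested genes and a threshold of 0.05, in 29 comparisons. The procedure was tested on simulated data. Samples of a group came from separate mice, and nothing else is stated on their independence. Mouse numbers in the labels pair the sections of an animal. The mean correlation of same-mouse deviations was 0.029 to 0.255 over the pairs of sections compared, and the mouse was tried as a block.

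Alternatives were a pseudocount of 0.1, no filter, a filter of 5 TPM, TMM factors, all 66 samples in one fit, single days and leaving out each mouse. The 10 members are all named, and other genes come from fixed lists of receptors, ligands, cytokines and markers or from the 2 closest patterns per member. One listed receptor is not reported here. Members and lists were chosen with earlier results of these data known. Ccl19, Ccl27a and Itgam had several identifiers and were left out of list counts. Positions are from GENCODE (GRCm38), and promoters from RefSeq (GRCm38.p6). Python 3.11.15, numpy 2.4.6, pandas 2.3.3 and matplotlib 3.10.9 were used. Words of 31 bases shared with other genes were 0 for Ccl2, Ccl3, Ccl4, Ccl7, Ccl8 and Ccl20, at most 5 for Ccl5, Ccl11 and Ccl24, and 33 of 3691 for Ccl28.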

Additional observations from a re-analysis of the deposited data

Results flagged for a closer look

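In groups of 4 mice, 1 sample stood far from the rest for Ccl3 in uninjured mid-colon and for Ccl4 in uninjured rectum. In both cases the other 3 samples were listed at 0, so the gap was the whole range (a ratio of 1). With 3 values at 0 the ratio is 1 whatever the other value is, so the chance rate of about 1 in 20 groups, which is for continuous values, does not apply to them. In all, 30 groups were examined.

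Responses that differed between sections by a direct test in limma were also picked out. At day 9 the rectal change minus that of mid-colon was 2.55 for Ccl2, 3.85 for Ccl3, 4.52 for Ccl4, 2.18 for Ccl7, 1.76 for Ccl8, 1.59 for Ccl11 and -0.95 for Ccl28 (log2). The anal change minus that of rectum at day 6 was -3.66 for Ccl8 and -2.56 for Ccl28. At day 9 it was -2.84 for Ccl2, -4.36 for Ccl3, -5.73 for Ccl4, -4.66 for Ccl5, -2.94 for Ccl7, -4.46 for Ccl8, -2.86 for Ccl11, -1.74 for Ccl24 and -1.48 for Ccl28. Adjusted p-values and the mice on which single calls rest stand beside the results above.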

How the results depend on the processing

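Values are numbers of members called. With a filter of 5 TPM there were 2 in mid-colon at day 6, 3 in mid-colon at day 9, 1 in rectum at day 20, 4, 1 and 1 in anus at days 6, 9 and 14, 3 for uninjured anus against rectum and 0 for mid-colon day 9 against day 6. With no filter there were 0 in mid-colon at days 14 and 20, 1 in rectum at each of these days, 0 in anus at day 14, 3 in neo-epithelium day 20 against day 9, 1 in rectum day 14 against day 9, 1 and 2 in mid-colon day 9 against day 6 and day 14 against day 9, and 4 for the day 9 response of rectum against mid-colon. A pseudocount of 0.1 gave 1 in anus at day 14 and 3 for that response. TMM factors gave 2 in mid-colon and 4 in rectum at day 14, and 4 in mid-colon day 9 against day 6. All samples in one fit gave 1 in rectum at day 3, 4 in rectum at day 14, 2 in anus at day 20, 7 in rectum day 14 against day 9, 0 in mid-colon day 9 against day 6, 1 in anus day 9 against day 6 and 3 for the day 9 response of rectum against mid-colon. In that fit the calls of Ccl28 in rectum at day 6 (adjusted p 0.206) and of Ccl5 in anus at day 6 (adjusted p 0.263) were lost. The cause was not tested, apart from fewer genes under the stricter filter.

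Against rectum, neo-epithelium gave 1 call on day 14 alone and 0 on day 20 alone, and against anus 2 on day 9 alone and 2 on day 14 alone, with fewer samples. On day 20 alone Ccl4 turned to 0.0245 against rectum (adjusted p 0.992), and on day 9 alone Ccl11 turned to 0.24 against anus (adjusted p 0.615). The mouse as a replicate block gave 2 calls for the day 6 response of rectum against mid-colon, added Ccl5 at day 9, and changed no other count by over 1.5 times.

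Without single mice the counts ranged from 4 to 7 (mid-colon day 6), 0 to 5 (day 14) and 0 to 3 (day 20), 1 to 6 (rectum day 14) and 1 to 7 (day 20), 1 to 3 (anus day 9) and 0 to 2 (day 14), 3 to 5 (neo-epithelium against anus) and 3 to 8 (its day 20 against day 9). They ranged from 2 to 6 (rectum day 9 against day 6), 0 to 4 (day 14 against day 9), 1 to 3 (mid-colon day 9 against day 6) and 2 to 4 (day 14 against day 9). For responses the ranges were 0 to 2 and 2 to 8 (rectum against mid-colon, days 6 and 9) and 5 to 9 (anus against rectum, day 9).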
